A study of Rattus norvegicus with 6 samples.

Results

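Olfactory receptors and vomeronasal receptors detect odours and pheromones, and the olfactory receptors form the largest gene family of the rat genome. The set described here holds every annotated CpG site whose nearest annotated transcript start belongs to a gene named Olr followed by a digit, Vom1r or Vom2r. There were 238 such sites at 119 genes, of 32674 annotated sites at 8016 genes. They comprised 156 sites at 88 olfactory receptor (Olr) genes, 18 sites at 9 vomeronasal type 1 receptor (Vom1r) genes and 64 sites at 22 vomeronasal type 2 receptor (Vom2r) genes. Many rat olfactory receptors now carry Or symbols, so 82 of the genes, with 141 sites, were found through their older Olr name, and the Or symbol is used below. The rule used names and no measured value, though the receptor genes were chosen with earlier results of these data known.

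The DNA came from dorsal root ganglia (DRG), the clusters of sensory nerve cell bodies beside the spinal cord, of adult male Sprague-Dawley rats aged 8 to 9 weeks and weighing about 220 g. In the SNL group (spinal nerve ligation, a surgical model of neuropathic pain, n = 3 libraries) ligatures closed the L5 and L6 spinal nerves on the left. In the Sham group (n = 3 libraries) surgery on the other side of the body stopped short of a ligature. Both were sampled at 3 weeks, and no transgene or drug was named. Whether each library is a different animal is not stated in the labels. All p-values below rest on the spread between libraries, which may be technical, shared in part across sites and never taken as less than counting error. An animal may have given DNA to both groups.

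Reduced representation bisulfite sequencing (RRBS) cuts DNA at CCGG with MspI, so it reads CpGs near such cuts. Bisulfite turns unmethylated cytosine into uracil, and a methylation level is the percent of reads in which a CpG kept its cytosine. The libraries held summed coverage of 31651277, 34293779 and 29420922 reads for SNL and 32243538, 31063811 and 27247702 reads for Sham. Each annotated site had at least 100 reads in every library, and the median coverage of receptor sites was 217 reads, against 214 over all annotated sites. The library SNL 1 stood apart at an island described here. At a single site nearest to Vom2r37, described further on, libraries lay far apart within both groups. At a CpG island with its shore nearest to Vom2r30, which supplies 14 of the 238 sites, SNL 1 averaged 47.98%, against 33.72% and 25.54% in the other SNL libraries and 24.66% to 31.63% in Sham. Many of the results that this island touches are given with and without it. The tissue label could not be checked by methylation. Of 27 listed markers of sensory neurons, glia, olfactory sensory neurons and immune cells, the glial gene Erbb3 alone had sites flagged as promoter, 2 sites at 2.2% in SNL and 2.5% in Sham.

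Each olfactory sensory neuron of the nose expresses a single allele of a single receptor gene, while the other receptor genes lie in closed chromatin. Vom1r and Vom2r genes are used in a similar way by neurons of the vomeronasal organ, where Vom1r proteins act through the G protein subunit Gnai2 and Vom2r proteins through Gnao1. The genes stand in large clusters. Olr and Vom1r genes have short, usually intronless coding regions, and the receptor genes mostly lack the CpG islands that keep promoters of other genes free of methylation. Single olfactory receptors have been described outside the nose.

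The starts of these genes offer RRBS little to read. In RefSeq sequences of 250 bases before to 50 bases after the annotated start (build GRCr8), 102 of the 119 genes were found. The MspI motif CCGG, which reads the same on both strands, occurred in 7 of them (6.9%), against 53.0% of all 27457 promoters in the table. The median number of CG was 2, against 7 over all promoters, and 29 of the 102 held no CG. The median GC content was 37.2%, against 52.3%. The annotated start was followed directly by ATG in 93 of the 102 (91.2%, against 10.5% of all promoters), so for most receptors the annotated start is a coding start. No measured receptor site lay between 250 bp before and 50 bp after its start, where 416 sites of the whole table lay.

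Of these stretches, 5 are printed below with each CG in capitals: those of the 2 receptors that passed the test and of 3 whose sites within 1 kb of the start carry both promoter and exon flags. All are from RefSeq, build GRCr8, 5′ to 3′ on the gene's strand. They lie at chr1:81474214-81474513 (Vom1r47, minus strand), chr5:137775338-137775637 (Or10ak7, minus strand), chr3:91076444-91076743 (Or5g27b, plus strand), chr1:168301418-168301717 (Or52p1, plus strand), chr5:137549545-137549844 (Or13p5, plus strand).
Vom1r47: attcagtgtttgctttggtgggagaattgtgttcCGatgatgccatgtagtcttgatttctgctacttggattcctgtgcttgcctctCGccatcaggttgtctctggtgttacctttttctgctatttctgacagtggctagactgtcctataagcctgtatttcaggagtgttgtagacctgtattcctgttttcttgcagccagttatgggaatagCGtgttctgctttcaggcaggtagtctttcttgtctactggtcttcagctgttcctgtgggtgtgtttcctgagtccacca
Or10ak7: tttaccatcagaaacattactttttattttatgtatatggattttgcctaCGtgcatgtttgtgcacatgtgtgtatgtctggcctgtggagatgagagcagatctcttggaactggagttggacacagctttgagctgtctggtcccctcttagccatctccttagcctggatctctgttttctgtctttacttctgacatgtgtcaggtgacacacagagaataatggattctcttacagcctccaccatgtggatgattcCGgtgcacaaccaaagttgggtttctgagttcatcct
Or5g27b: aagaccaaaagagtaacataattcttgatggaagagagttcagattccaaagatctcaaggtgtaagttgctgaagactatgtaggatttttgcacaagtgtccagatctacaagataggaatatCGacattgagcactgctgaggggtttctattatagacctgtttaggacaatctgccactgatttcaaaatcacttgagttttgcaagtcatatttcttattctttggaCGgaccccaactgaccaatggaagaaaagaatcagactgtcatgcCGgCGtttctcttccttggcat
Or52p1: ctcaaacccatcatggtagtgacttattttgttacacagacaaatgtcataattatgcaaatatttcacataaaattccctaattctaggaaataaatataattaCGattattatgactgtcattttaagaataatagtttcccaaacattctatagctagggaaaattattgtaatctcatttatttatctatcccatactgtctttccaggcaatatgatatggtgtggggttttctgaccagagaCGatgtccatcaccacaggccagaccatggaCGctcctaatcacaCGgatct
Or13p5: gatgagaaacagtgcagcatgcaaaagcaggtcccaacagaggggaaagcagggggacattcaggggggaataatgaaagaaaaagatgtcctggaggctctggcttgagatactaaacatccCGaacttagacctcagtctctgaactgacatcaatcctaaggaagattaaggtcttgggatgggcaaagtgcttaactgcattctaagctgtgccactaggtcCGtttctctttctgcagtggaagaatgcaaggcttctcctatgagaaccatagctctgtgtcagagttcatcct
The Vom1r47 stretch holds 3 CG, Or10ak7 and Or13p5 hold 2 each, and Or5g27b and Or52p1 hold 4 each. CCGG is found in those of Or10ak7 and Or5g27b. Motifs known from olfactory receptor promoters were also counted on both strands, and the second of them can overlap the MspI motif. The letters TAATTA, a homeodomain core that reads the same on both strands, occurred in 24 of the 102 receptor stretches (23.5%) and in 5.3% of all promoters, and among the printed stretches it is in that of Or52p1. CCCNNGGG, the shape of an Ebf core, occurred in 5 (4.9%) and in 12.7% of all promoters. These are matches of letters in AT-rich and GC-rich windows and say nothing about binding in these samples.

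Receptor sites were methylated in most places. Over the 238 sites the mean level was 74.19% ± 1.71 in SNL and 75.49% ± 0.57 in Sham (SD, n = 3 each), and over all annotated sites it was 67.32% ± 0.79 in SNL and 68.24% ± 0.43 in Sham. The library means were 76.02%, 73.94% and 72.63% in SNL and 74.83%, 75.84% and 75.8% in Sham, so SNL 1 lay above every Sham library and the groups overlapped. Of the sites, 135 (56.7%) were above 80%, 92 (38.7%) between 20% and 80% and 11 (4.6%) below 20%, against 53.6%, 30.9% and 15.5% of all annotated sites. A large share, 183 sites (76.9%, against 58.5%), had no promoter, exon, intron, island or shore flag. The 18918 other sites of that kind averaged 74.7% ± 0.88 in SNL and 75.9% ± 0.46 in Sham.

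Among the distances compared, receptor sites were least like other genes next to the start. Within 2 kb of the start, 19 receptor sites had a median level of 79.6% in SNL and 83.0% in Sham, and none of the 19 was below 20%. The 3402 other sites at that distance had medians of 3.6% in SNL and 3.5% in Sham, with 70.2% of them below 20%. The 9 receptor sites with a promoter flag had medians of 80.7% in SNL and 83.8% in Sham. None of these 9 had an island or shore flag, and the 453 promoter-flag sites of other genes without such flags had medians of 26.5% in SNL and 30.4% in Sham. From 2 to 10 kb the medians of 56 receptor sites were 88.7% in SNL and 90.3% in Sham, against 78.7% in SNL and 80.1% in Sham for other genes. From 10 to 50 kb, where 107 of the 238 receptor sites lay, the order was the other way, with medians of 77.6% in SNL and 77.2% in Sham, against 83.0% in SNL and 84.1% in Sham for other genes. All 14 sites of the Vom2r30 island and shore, with a median level of 31.1% over the libraries, fall in this range. Its medians were not taken without them. Beyond 50 kb they were 86.6% in both groups for 56 receptor sites, against 84.7% in SNL and 86.5% in Sham for other genes. ATG directly followed the annotated start in 91.2% of receptor stretches and 10.5% of all promoters, so these distances are not measured from like points. These are descriptions, and no test of the difference between gene sets was run.

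**Figure D1:**
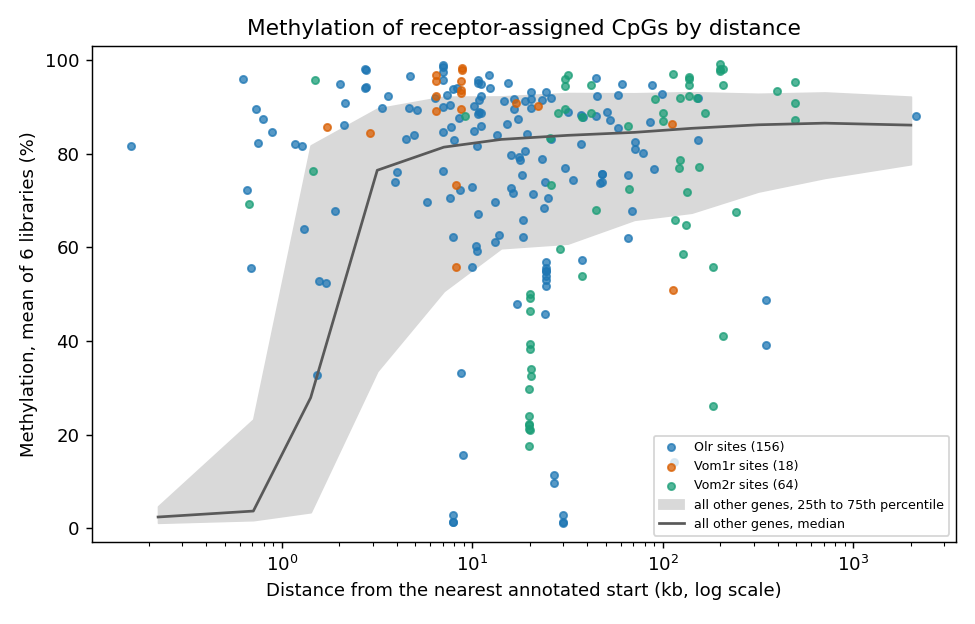
Methylation (percent, mean of all 6 libraries) against distance to the nearest annotated start (kb, log scale). Points are receptor sites coloured by family, and the line and band are the median and the 25th to 75th percentile of all other genes. Within 2 kb the 19 receptor sites lie between 32.7% and 95.9%, while the median of the 3402 other sites is 3.5%.

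The flagged sites near starts are the closest the data come to the annotated starts of receptors. Most of these are coding starts and need not mark promoters. Or5g27b had a site 162 bp past its start (chromosome 3, position 68833985, rn4) at 75.73%, 82.61% and 81.65% in SNL, against 81.95%, 84.30% and 84.03% in Sham. Or52p1, a class I receptor of the class that mammals share with fish, had a site 886 bp past its start (chromosome 1, position 162266653) at 81.06%, 81.87% and 83.83% in SNL, against 85.68%, 86.50% and 88.64% in Sham. The groups did not overlap at Or52p1 and overlapped at Or5g27b, and neither passed the test (adjusted p = 0.168 and 0.538, quasi-binomial test with Benjamini-Hochberg adjustment over all annotated sites).

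Or13p5 had 2 flagged sites, 749 and 797 bp past its start on chromosome 5. The farther one (position 139216562) stood at 84.48%, 85.23% and 83.83% in SNL, against 90.61%, 90.67% and 89.01% in Sham, without overlap, and did not pass (difference -5.58 points, adjusted p = 0.105). Upstream of their starts, Or1o2 (621 bp) stood at 95.70% ± 0.84 in SNL and 96.20% ± 1.33 in Sham, and Or2aa1 (731 bp) at 88.33% ± 1.79 in SNL and 90.59% ± 3.32 in Sham (SD, n = 3). Or5af1b (652 bp) stood at 72.77% ± 5.06 in SNL and 71.67% ± 2.67 in Sham, and Or13e8 (690 bp) at 53.91% ± 4.04 in SNL and 57.05% ± 2.94 in Sham. The groups overlapped at each of these 4. Vom2r30 stood at 66.27% ± 5.82 in SNL and 72.07% ± 5.56 in Sham 672 bp past its start, with 134 to 2467 reads.

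The remaining sites within 2 kb carried no promoter or exon flag and belonged to Vom1r36, Vom2r35, Or51r1, Or52b2, Or2b11, Or13p4 and Or7r1. Vom2r35 showed how close neighbours can differ, with 94.17% ± 0.85 in SNL and 97.12% ± 1.10 in Sham at one site and 72.93% ± 0.67 in SNL and 79.86% ± 4.14 in Sham at the other. The lowest was at Or2b11, at 31.70% ± 2.43 in SNL and 33.76% ± 3.24 in Sham. None of the 19 sites within 2 kb passed the test.

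The 3 families stood at different mean levels, which are described without a test. Vom1r sites averaged 86.27% ± 0.5 in SNL and 86.91% ± 0.32 in Sham, and 15 of the 18 were above 80%. Olr sites averaged 73.85% ± 1.03 in SNL and 76.02% ± 0.69 in Sham. The Olr library means were 74.9%, 73.8% and 72.85% in SNL and 75.22%, 76.39% and 76.43% in Sham, so all SNL libraries lay below all Sham libraries. Vom2r sites averaged 71.64% ± 3.74 in SNL and 71% ± 0.48 in Sham, and without the Vom2r30 island and shore they averaged 81.69% ± 1.6 in SNL and 83% ± 0.36 in Sham. Over all receptor sites without that island and shore (224 sites), the means were 76.6% ± 1.11 in SNL and 78.45% ± 0.43 in Sham, a difference of -1.85 points in place of -1.3 points. The sign of the -1.3 points turned when reads were summed over sites (0.12 points) or genes were taken by current symbol alone (0.22 points), and without the island and shore these values were -2.09 and -1.03 points. The difference over all annotated sites was -0.92 points, and over the 18918 sites without flags it was -1.2 points.

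**Figure D2:**
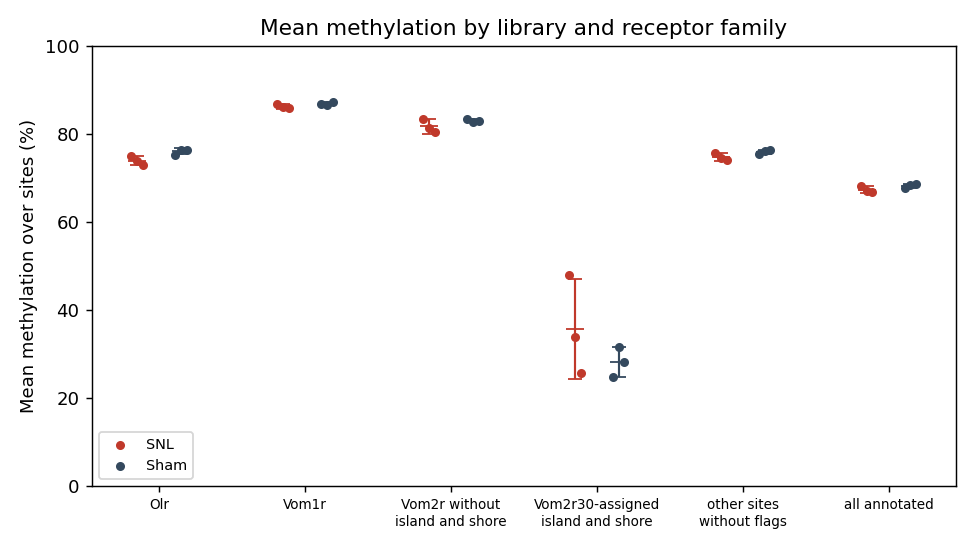
Mean methylation (percent) in each of the 3 SNL and 3 Sham libraries, for the receptor families, the island and shore assigned to Vom2r30, and comparison sets. Points are libraries and bars their mean with the SD. SNL lies below Sham without overlap for Olr sites (73.85% in SNL and 76.02% in Sham), and among the sets drawn the SNL libraries spread most at the Vom2r30 island and shore.

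Position varied between families as well. The median distance to the named start was 14.2 kb for Olr sites, 8.7 kb for Vom1r sites and 65.9 kb for Vom2r sites. Over all receptor sites it was 19.9 kb, against 45.0 kb over all annotated sites, and the farthest site lay 2135.4 kb from Or4e5. A gene name here means the nearest start, so a distant site may have no tie to that receptor. Of the 119 genes, 62 had 1 site and 31 had 2. The sites fell into 150 groups within a read length of 50 bases, and sites of a group can share reads and are not independent.

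Per gene, 71 receptors averaged above 80%, 46 between 20% and 80% and 2 below 20%. The highest levels were at Vom2r80 (98.11% in SNL and 98.38% in Sham), Vom2r3 (96.71% in SNL and 97.45% in Sham), Vom2r54 (96.52% in SNL and 97.15% in Sham), Or6e1 (95.42% in SNL and 97.63% in Sham) and Olr1052 (95.50% in SNL and 96.68% in Sham). The lowest was Or6s1, at 2.07% in SNL and 1.59% in Sham over 3 shore sites about 7.9 kb past its start. Or9k7 followed at 9.72% in SNL and 11.37% in Sham, 26.9 kb upstream of its start. Or4d11 averaged 23.43% in SNL and 23.11% in Sham, a mean of 3 sites between 0.83% and 3.78% in the group means and 1 site at 88.2% in SNL and 87.5% in Sham. Vom2r30 averaged 39.87% in SNL and 33.84% in Sham and Vom2r38 40.17% in SNL and 41.70% in Sham. The 11 sites below 20% belonged to Or6s1, Or4d11, Or9k7, Or5au1, Or13l2 and the Vom2r30 shore.

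Among the receptors with most sites, Or7r1 on chromosome X had 12. Its 7 sites in a CpG island 24.2 kb past the start averaged 50.99% to 55.94% in SNL and 51.83% to 57.66% in Sham, while its sites 1266 and 1300 bp past the start stood at 80.39% and 62.29% in SNL and 83.00% and 65.70% in Sham. Vom2r58 had 6 sites at a mean of 79.26% in SNL and 80.97% in Sham, Vom2r12 had 5 at 94.03% in SNL and 94.48% in Sham, and Olr1052 had 5 within 37 bp. None of these sites passed the test.

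Between the groups, few receptor sites differed beyond the spread. Of the 238 sites, 2 passed an adjusted p under 0.05, both lower in SNL, against 1.42% of all annotated sites called (1.24% lower and 0.181% higher). A share of 2 in 238 is near that background. The count was 0 to 8 when a library was left out (5 with SNL 1 out, 1 with SNL 2 out, 8 with SNL 3 out, 2 with Sham 2 out, and 0 with Sham 1 or Sham 3 out), and 15 when adjusted over all 210270 sites with 20 reads or more, 11 of them in the Vom2r30 island and shore. With an offset for each library 5 passed, 1 lower and 4 higher, while over all annotated sites 243 of 396 calls were lower, in place of 405 of 464. At an unadjusted p under 0.05 there were 53 sites (38 lower and 15 higher), or 22.3%, against 13.1% of all annotated sites (10.3% lower and 2.88% higher). Of these, 13 of the 15 higher ones were in the Vom2r30 island and shore, and without those 14 sites the count was 40 of 224 (17.9%), 38 of them lower. Among sites without flags the share was 16.9% of receptor sites and 14.6% of other sites. The groups did not overlap at 47 receptor sites, 44 lower and 3 higher in SNL, against 17.8% of all annotated sites (13.2% lower and 4.64% higher). In the authors' deposited table, 14 receptor sites had q under 0.05, all lower in SNL, or 5.88%, against 4.54% of all annotated sites.

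Small downward shifts were the more common direction. SNL was lower than Sham at 166 of the 238 sites (69.7%), against 61.3% of all annotated sites, and the median difference was -1.42 points, against -0.55 points. The gap was smaller among sites without flags. There 72.7% of the 183 receptor sites and 65.2% of the 18918 other sites were lower, with median differences of -1.4 and -0.88 points. With an offset for each library, 150 sites (63.0%) were lower, against 50.6% of all annotated sites. Differences ran from -10.3 to 17.5 points, and 46 sites (19.3%, against 12.4%) differed by 5 points or more, while 5 sites (2.1%, against 1.92%) differed by 10 points or more. Without the Vom2r30 island and shore, these counts were 34 (15.2%) and 2 (0.9%) of 224 sites. In Olr genes 119 of 156 sites were lower, in Vom1r genes 10 of 18, and in Vom2r genes 37 of 64, or 37 of 50 without the Vom2r30 island and shore.

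**Figure D3:**
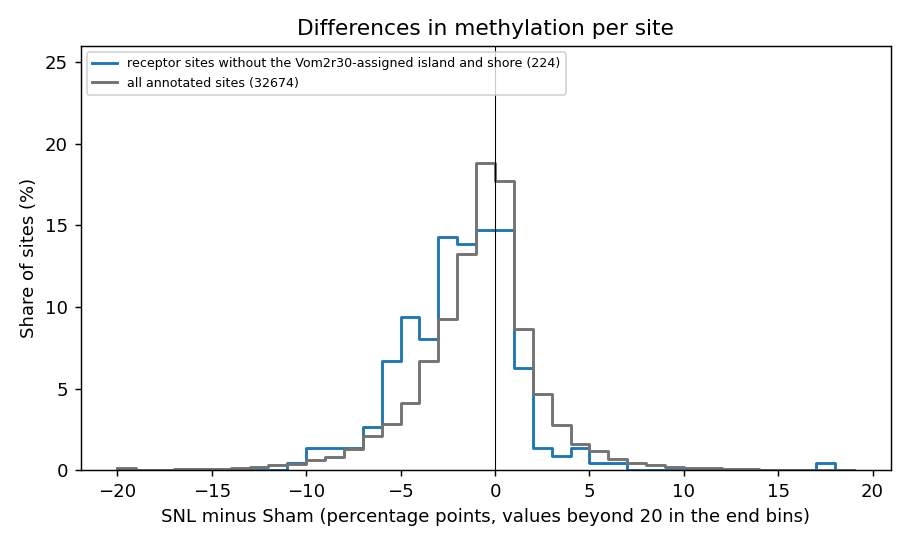
Distribution of the difference in methylation (SNL minus Sham, percentage points) for the 224 receptor sites outside the Vom2r30 island and shore and for all 32674 annotated sites, as a percent of sites in each set. The receptor sites have a median of -1.61 points, against -0.55 points for all sites.

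Vom1r47, a vomeronasal type 1 receptor gene on chromosome 1, had its only site at position 71864287 (rn4), 2.9 kb past the start and outside every flagged feature. Its methylation was 83.5%, 79.0% and 80.4% in SNL and 89.6%, 85.8% and 87.6% in Sham, so each SNL library lay below each Sham library. The means were 80.94% ± 2.29 in SNL and 87.65% ± 1.87 in Sham (SD, n = 3 each), a shift of -6.71 points in SNL (SE 1.71, quasi-binomial test with an adjusted p of 0.0186). With 741 to 1197 reads per library, the Wilson 95% intervals reached 2.1 to 2.6 points to each side, which cover counting error only. The difference passed the test when SNL 1 or Sham 2 was left out and did not when SNL 2, SNL 3, Sham 1 or Sham 3 was (adjusted p from 0.00365 to 0.106).

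Or10ak7, an olfactory receptor gene formerly named Olr869, had its only annotated site 8.3 kb upstream of its start (chromosome 5, position 139471651). The levels were 92.1%, 91.7% and 91.8% in SNL and 95.7%, 97.1% and 95.2% in Sham, again without overlap. The means were 91.89% ± 0.22 in SNL and 95.99% ± 0.99 in Sham (SD, n = 3 each), so SNL was lower by a difference of -4.09 points (SE 0.59, with an adjusted p of 0.0401 and 343 to 747 reads). Leaving out any of the 6 libraries ended the call (adjusted p from 0.053 to 0.131). Within 1 kb there were 8 other CpGs with 20 reads or more in every library, and 4 of the 8 were lower in SNL and none passed the test (smallest adjusted p = 0.715). These 8 had 30 to 64 reads per library, so a shift of this size could be missed there. Both calls rest on sharing the estimate of spread across sites, since without it no annotated site of the series passed. Sharing alone did not give them, since limma on logit values also shares the spread and called none.

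The next lowest p-values did not pass. The site of Or2t47e (chromosome 10, position 44286271), 24.1 kb past the start, stood at 37.9%, 42.6% and 41.4% in SNL and 49.7%, 49.3% and 54.0% in Sham (difference -10.35 points ± 2.05 SE, adjusted p = 0.059). Another CpG of Or2t47e 26 bp away stood at 71.45% ± 6.10 in SNL and 76.47% ± 5.19 in Sham (SD, n = 3), with overlap. Or1af1 had its site at 84.77% ± 2.87 in SNL and 93.18% ± 1.25 in Sham, and Or10z1 had its site, with an intron flag, at 81.72% ± 2.00 in SNL and 90.87% ± 1.68 in Sham (adjusted p = 0.0801 and 0.0915). The most deeply read of these, a site 394.4 kb past the start of Vom2r55, had 92.64%, 92.18% and 91.81% in SNL and 94.53%, 94.05% and 95.55% in Sham (1006 to 1432 reads, adjusted p = 0.0741). Other large gaps between means that did not pass were at Or5c1 (72.00% ± 1.65 in SNL and 81.58% ± 3.25 in Sham), Or6c6b (68.97% ± 2.38 in SNL and 78.33% ± 2.29 in Sham) and Or9i2 (64.14% ± 6.55 in SNL and 72.84% ± 2.62 in Sham), with adjusted p of 0.118, 0.215 and 0.393.

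**Figure D4:**
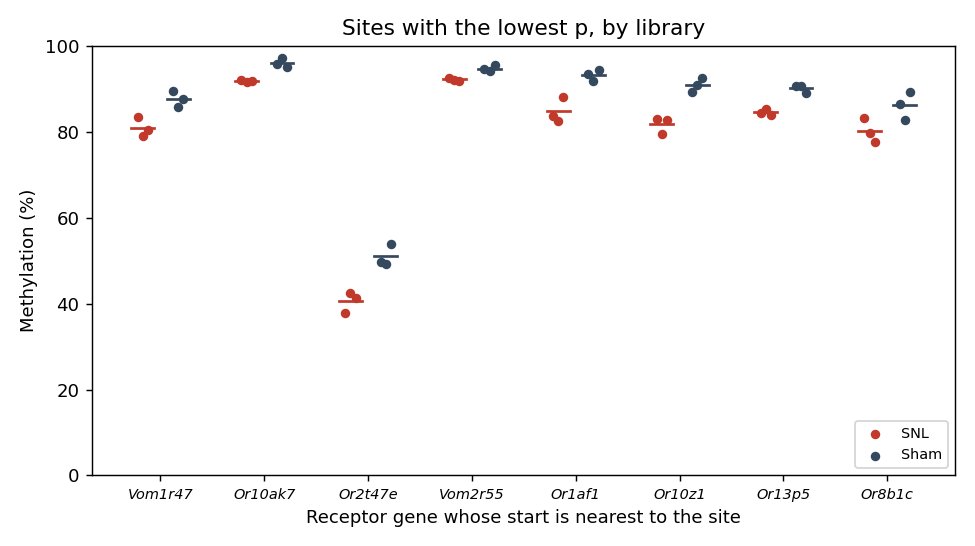
Methylation (percent) in each SNL and Sham library at the 8 receptor sites with the lowest p, 1 site per gene and without Vom2r30. Points are libraries and short lines group means. The SNL points lie below the Sham points without overlap at all of them but Or8b1c, and Vom1r47 (80.94% in SNL, 87.65% in Sham) and Or10ak7 (91.89% in SNL, 95.99% in Sham) passed an adjusted p of 0.05.

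Of the 15 receptor sites higher in SNL at an unadjusted p under 0.05, 13 were at the island and shore nearest to Vom2r30. The 14 CpGs there, on chromosome 1 from position 70431991 to 70432304, lie about 20 kb upstream of the annotated start, and the exon flag that 8 of them carry can belong to another transcript. Their mean was 47.98%, 33.72% and 25.54% in SNL and 24.66%, 31.63% and 28.11% in Sham, so SNL 1 lay above all Sham libraries, SNL 2 slightly above them and SNL 3 among them. The group means were 35.75% ± 11.36 in SNL and 28.13% ± 3.48 in Sham (SD, n = 3 each). The site with the largest gap there, position 70432050, had 58.66%, 41.81% and 33.35% in SNL and 30.60%, 36.83% and 34.88% in Sham. Per-site differences ran from 4.7 to 10.5 points and none passed the test. Coverage was far above that of other receptor sites, with a median of 2210 reads, and reads of near-identical copies cannot be told from reads of a single place here. The call moved with 1 library, since 8 of the sites passed, all higher, when SNL 3 was left out, 1 did without SNL 2, and none did without any other library.

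**Figure D5:**
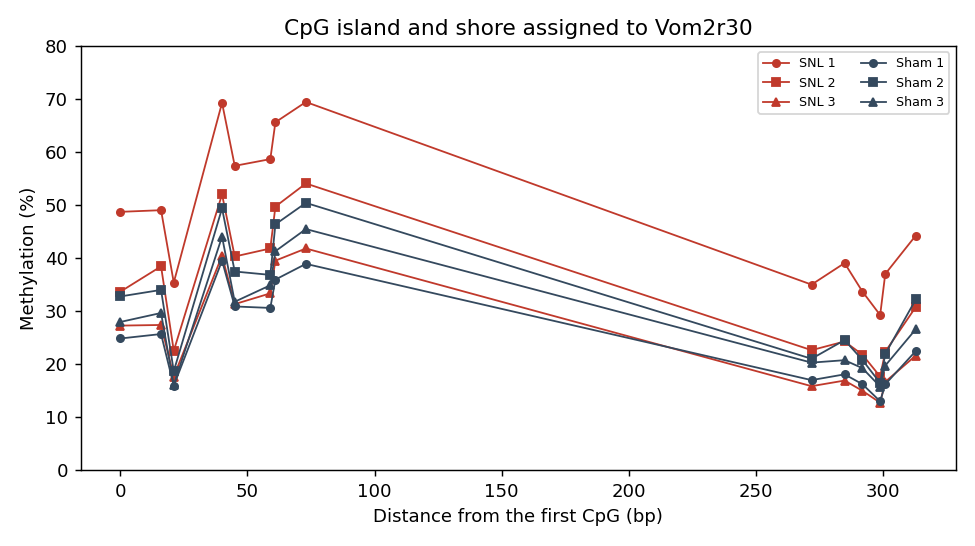
Methylation (percent) of the 14 CpGs of the island and shore nearest to Vom2r30 in each SNL and Sham library, by distance from the first CpG in bp. SNL 1 lies above the other 5 libraries along the whole stretch, with a mean of 47.98%.

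The largest gap between group means was 17.5 points higher in SNL at a site 207.6 kb upstream of Vom2r37 (chromosome 1, position 93004939). Its libraries stood at 96.15%, 2.16% and 50.86% in SNL and 53.21%, 4.59% and 38.89% in Sham, and the groups overlapped (adjusted p = 0.803). The CpGs 6 and 34 bp away stood between 91.67% and 99.07% in every library. The 17.5 points were thus smaller than the range within either group. A level counts reads that kept a C, so a T in place of that C in an animal's DNA would also read as unmethylated. Whether that holds here was not tested.

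Summing the reads of all sites of a gene called no receptor. For the 62 genes with 1 site, among them Or10ak7, Vom1r47, Or1af1 and Or10z1, the sum repeats the reads of that site. Of the 119 genes 0 passed an adjusted p under 0.05, against 0.536% of all 8016 genes, and 23 had an unadjusted p under 0.05, all lower in SNL (19.3%, against 13.7% of all genes). The lowest adjusted p was 0.136, for Or10ak7 and for Vom2r55, which stood at 87.88% in SNL and 90.97% in Sham over its sites. Vom1r47 (0.14), Or6c69d (0.161, at 92.75% in SNL and 95.6% in Sham), Or1af1 (0.172) and Or10z1 (0.179) followed. Lower sums in SNL were found at 95 genes (79.8%, against 66.9% of all genes) and higher sums at 24, and the median difference was -2.07 points, against -0.79 points over all genes. limma on logit values of the sums also called none.

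Windows of 1 kb with 3 or more CpGs read at least 20 times also gave no call. Of 145 windows that hold a receptor site, 40 could be tested, and 0 passed, against 0.739% of all 29759 windows. An unadjusted p under 0.05 was reached by 9 of the 40, 8 lower and 1 higher in SNL, against 10.5% of all windows. Of the 40, 30 were lower, and the share lower over all windows was not taken. The median difference was -1.09 points, against -0.47 points over all windows. These windows hold 195 CpGs, 107 of them receptor sites, so they in part repeat the reads of those sites. The lowest adjusted p was 0.078, in the Vom2r35 window of 4 CpGs, at 84.00%, 83.84% and 83.58% in SNL and 87.80%, 89.33% and 90.62% in Sham, without overlap.

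The receptor sites lay in 60 clusters on 18 chromosomes when sites within 1 Mb were joined. The cluster with most sites, on chromosome 7, held 19 sites of 8 Olr genes between positions 6668719 and 8492866, with levels from 9.7% to 98.9% and means of 78.3% in SNL and 80.7% in Sham. The cluster of Or10ak7, Or13p4 and Or13p5 on chromosome 5 had 6 sites, all lower in SNL, at 82.3% in SNL and 87.1% in Sham. A Vom1r cluster on chromosome 4 had 7 sites, all lower in SNL, at 93.4% in SNL and 94.7% in Sham. Most clusters with more than 1 receptor site had a lower mean in SNL. In the 19-site cluster on chromosome 7, 14 sites were lower, and in the Or7r1 cluster on chromosome X, 11 of 12 were. A few clusters had a higher mean in SNL. In a pair of Olr clusters of 6 sites each, 2 sites were lower, with means of 45.9% in SNL and 45.6% in Sham on chromosome 1 and of 76.4% in SNL and 76.1% in Sham on chromosome 10. A Vom2r cluster of 5 sites on chromosome 1, which holds the variable Vom2r37 site, stood at 64.6% in SNL and 61.7% in Sham, with 3 of the 5 lower in SNL. An Olr cluster on chromosome 15, with Or6s1, was among the least methylated at 53.1% in SNL and 54.3% in Sham over 13 sites.

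The DNA between the receptor sites of a cluster was read at 810 other CpGs with 20 reads or more. Their means were 66.13% ± 0.79 in SNL and 67.44% ± 0.45 in Sham (SD, n = 3 each). Of the 810, 6 passed (0.74%), 4 lower and 2 higher in SNL, against 0.554% of all 210270 such sites. The pair with the lowest p lay 291 kb from the Or52b2 site on chromosome 1, at positions 163371290 (25.22% ± 1.53 in SNL and 36.06% ± 1.4 in Sham, adjusted p = 2.03e-06) and 163371301 (54.67% ± 1.0 in SNL and 63.35% ± 1.08 in Sham, adjusted p = 0.000525). The 2 higher ones were also a pair, 118.3 kb from the Or5au1 site on chromosome 15, and the first of them stood at 46.86% ± 3.13 in SNL and 31.53% ± 5.66 in Sham (adjusted p = 0.0106). At each of the 6 the groups did not overlap. These sites are not nearest to a receptor start or fell short of 100 reads in a library, and their own genes were not looked up.

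Genes that work with the receptors were described from a list. Of 28 genes of olfactory signal transduction and receptor choice, 20 were measured, with 117 sites, and 2 sites passed, both lower in SNL, near the 1.42% called over all annotated sites. An unadjusted p under 0.05 was reached by 18 of the 117, against 13.1% of all annotated sites. Both called sites were nearest to Gng13, a G protein gamma subunit of olfactory and taste signalling. They lay 17.2 kb from its start, outside every flagged feature, and 22 bp apart, so they share reads. They stood at 62.76% ± 0.61 in SNL and 76.29% ± 1.0 in Sham (chromosome 10, position 14969082, adjusted p = 0.0107) and at 56.89% ± 1.62 in SNL and 69.98% ± 2.82 in Sham (position 14969104, adjusted p = 0.0289). The sum for Gng13 holds these same 2 sites alone and is not a separate result. It stood at 60.36%, 59.79% and 59.30% in SNL and 75.13%, 71.35% and 72.90% in Sham (adjusted p = 0.0351). The first site lost its call without Sham 3 alone, while the second site and the sum kept it without SNL 1 alone. With an offset for each library 1 of the 2 sites passed and the sum did not. With limma the adjusted p of the sum was 0.0916. The genes without a called site include Adcy3, the adenylyl cyclase of the odour response, Gnal, its G protein alpha subunit, Cnga2 and Cngb1, its channel subunits, and Lhx2, Ldb1 and Ebf1, which act in receptor choice. The median difference over the list was -1.19 points, against -0.55 points over all annotated sites.

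Of 4 genes of vomeronasal transduction 3 were measured (Gnai2, Gnao1 and Gng8, with 6 sites), and none passed (smallest adjusted p = 0.173, with 2 of the 6 sites at an unadjusted p under 0.05, against 13.1% of all annotated sites). Of other chemoreceptor families, taste and trace amine receptors among them, 11 genes with 32 sites were measured, and none passed (smallest adjusted p = 0.209, with 2 of the 32 sites at an unadjusted p under 0.05, against the same 13.1%). Their median difference was 0.05 points.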

How the data were processed

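RRBS libraries were made from 3 SNL and 3 Sham DRG samples and sequenced from 1 end (50 bases), per the labels' protocols. The tools were Bismark 0.18.1, Bowtie2 and methylKit 1.3.3, per the submitters' processing notes. Those notes name the rat assembly rn4, although a human assembly appears in the labels' protocol text, so every position is printed unchanged and taken as rn4. The deposited library files list, per the file headers, a count of reads over each CpG and the percent of them with C. A deposited table covers 32674 nuclear sites with 100 reads or more in all 6 libraries. It gives the percent per library, a p-value and a q-value from the authors' test, the authors' signed score in percentage points, flags, and the distance to the nearest start. How the authors set that test is not given in the sources used.

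RefSeq names were matched to symbols and synonyms in a table of build GRCr8, used for names and promoter sequences alone. Of 8123 transcripts 7627 matched (94% of sites). Strand and copies of near-identical receptors cannot be told apart in these files.

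Methylated read counts were coverage times percent. Each site, gene sum and 1-kb window was fitted with a logistic model on group, with overdispersion moderated by limma's squeezeVar and kept at 1 or more, an F test, and Benjamini-Hochberg adjustment over the whole table. Sites, genes and windows were called at an adjusted p under 0.05. The fit was also run on simulated sites with a common spread and no shared reads, unlike the real sites, so no support is drawn from it. With 3 libraries per group an exact permutation test cannot go below p = 0.1, and none is given. Differences are SNL minus Sham. Sites within 50 bp share reads, and gene sums can count such a read more than once. Alternatives were no moderation, a replicate block, library offsets, limma on logit values (pseudocount 1), other coverage limits, other member sets and leaving out each library. Software was R 4.3.3, limma 3.58.1, Python 3.11.15, pandas 2.3.3, numpy 2.4.6, scipy 1.17.1 and matplotlib 3.10.9.

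The receptor genes and gene lists were chosen with earlier results of these data known. Named sites are those that passed, the 6 lowest p-values, those with a promoter or exon flag or within 2 kb of a start, and the 5 largest gaps in each direction. Named genes are the 6 lowest p-values of sums, the 5 lowest and 5 highest levels and the 5 with most sites. The called sites in clusters, the clusters and the Gng13 sites were named after their values were seen.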

Additional observations from a re-analysis of the deposited data

How the results depend on the processing

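The count of receptor sites called, 2 in the report, was 0 without moderation of the spread and 0 with limma on logit values. It was 5 with library offsets (1 lower and 4 higher, the higher ones in the Vom2r30 island and shore), 1 of 109 at 200 reads or more, 15 when adjusted over all sites with 20 reads or more (11 of them in that island and shore), and 1 of 97 by current symbol alone. Leaving out a library gave 0 to 8 (5 when SNL 1 was dropped, 1 for SNL 2, 8 for SNL 3, and 0 for Sham 1 or Sham 3). Library offsets also gave 243 of 396 calls lower over the whole table, in place of 405 of 464. The difference of -1.3 points was 0.12 when reads were summed over sites and 0.22 by current symbol alone. Without the Vom2r30 island and shore, an alternative chosen after seeing the data, these were -2.09 and -1.03. Leaving out a library gave -2.21 to -0.51. Receptor genes and windows called stayed at 0 in all 10 alternatives of each, and 150 to 181 sites were lower in all 7 alternatives of that count. A replicate block called 1 receptor site (Vom1r47). The labels do not say which libraries share an animal, so the numbers were not taken to pair them. Same-numbered libraries deviated with correlations of -0.055, 0.256 and -0.135. Differently numbered libraries ran from -0.293 (SNL 2 with Sham 1) to 0.341 (SNL 3 with Sham 1). A pairing under other numbers was not tested. Having 3 libraries per group limits every test here, and reads give about 2 points of counting error at the called sites. The causes of these changes were not tested.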
